A study of Mus musculus with 38 samples.

Results

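The genes described here are 10 genes that mark blood vessel endothelium: Pecam1, Cdh5, Kdr, Flt1, Tek, Tie1, Cldn5, Esam, Vwf and Eng. They were measured in brown adipose tissue of C57BL/6J mice on 38 arrays with 1 colour each. Members were chosen by gene name among 29411 gene names on the array. Of the 10 names 9 matched as written, and the probe for Esam carries the older name Esam1 and was matched through its accession. All 10 passed the filter on dim probes that left 21862 gene names for testing. Mice weaned at 3 to 4 weeks of age received a normal low fat diet (LFC) with 10% of calories from fat, a high fat high sucrose diet (HFC) with 60% of calories from fat, or the HFC diet with the botanical formulation Kal-1 at 5, 20 or 75 micrograms (HF5, HF20 and HF75). LFC and HFC have 10 arrays each, at Day 6, 10 and 14 and at Week 0, 3, 6, 9, 12, 15 and 18, and each dose has 6 arrays, at Week 3 to Week 18. The labels give 1 array per group and time point, so the time points serve as replicates. They name 30 animals per group, with 5 killed every 3 weeks, and do not say whether RNA was pooled. Day 14 and Week 0 are the same number of days on diet.

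Brown fat is among the most densely vascularised tissues of the mouse, and its capillaries bring oxygen and fatty acids to the heat-producing brown adipocytes and carry the heat away. Endothelial cells line these vessels. They are held together by junction proteins (Pecam1, Cdh5, Cldn5 and Esam), grow and survive in response to VEGF through the receptors Kdr and Flt1, are kept quiescent through the angiopoietin receptor Tek and its partner Tie1, carry the TGF-beta co-receptor Eng, and secrete Vwf, the clotting protein that tethers platelets. The comparisons that the design allows are those of these genes between diets, over time on diet and between doses of Kal-1. In whole tissue RNA, fewer endothelial cells and less RNA per endothelial cell cannot be told apart.

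Each gene was read by a 60-base probe. The probes for Pecam1 and Tie1 are shown because, with array brightness as a class in the model, Pecam1 had the most negative slope of the 10 over days in HFC and Tie1 over Weeks 3 to 18. Their letters are those deposited with the log2 ratios, in lower case:
Pecam1 probe (gene on chromosome 11): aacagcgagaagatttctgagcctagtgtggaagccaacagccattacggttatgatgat
Tie1 probe (gene on chromosome 4): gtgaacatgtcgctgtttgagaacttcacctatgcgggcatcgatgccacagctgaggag

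The promoters of the members that hold the letters GGAAGT are shown because the 10 genes moved together across the arrays. Within the 27 arrays of the dimmer class described below they did so less, with a median correlation of 0.39 in place of 0.88. The hexamer is a form of the binding motif of ETS factors, the family that includes the endothelial regulators Erg and Fli1. A link between the motif and the levels was not tested. The table of RefSeq promoters (build GRCm38.p6) holds 6 of the 10 genes, namely Kdr, Flt1, Tek, Tie1, Cldn5 and Eng. The 250 bases before the start of each gene were searched on both strands for GGAAGT and for AACAGGAA, a form of the FOX:ETS motif. GGAAGT was found in 4 of the 6 promoters, against 19.7% of 32851 promoters in the table. AACAGGAA was found in 0 of the 6, against 2.25% of all promoters. The motifs share the letters GGAA and can overlap, and a match is a description of the letters and not a bound site. Capitals mark GGAAGT or its reverse complement ACTTCC, and sequences run 5′ to 3′ on the strand of the gene:
Kdr, chr5:75978456-75978705, minus strand: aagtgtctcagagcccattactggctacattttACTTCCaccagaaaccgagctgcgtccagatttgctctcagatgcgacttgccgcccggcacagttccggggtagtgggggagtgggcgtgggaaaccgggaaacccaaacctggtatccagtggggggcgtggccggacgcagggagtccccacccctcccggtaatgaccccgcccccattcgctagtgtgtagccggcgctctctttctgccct
Flt1, chr5:147726012-147726261, minus strand: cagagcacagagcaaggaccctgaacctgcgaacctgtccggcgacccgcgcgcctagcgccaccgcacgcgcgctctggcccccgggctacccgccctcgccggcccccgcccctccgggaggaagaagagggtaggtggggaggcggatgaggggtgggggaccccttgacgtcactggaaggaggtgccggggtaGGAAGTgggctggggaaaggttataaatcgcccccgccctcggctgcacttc
Tie1, chr4:118489850-118490099, minus strand: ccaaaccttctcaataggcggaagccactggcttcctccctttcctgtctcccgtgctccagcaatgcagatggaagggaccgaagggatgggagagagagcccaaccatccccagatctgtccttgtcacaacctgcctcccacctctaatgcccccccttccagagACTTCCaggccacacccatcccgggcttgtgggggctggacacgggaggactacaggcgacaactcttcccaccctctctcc
Eng, chr2:32646345-32646594, plus strand: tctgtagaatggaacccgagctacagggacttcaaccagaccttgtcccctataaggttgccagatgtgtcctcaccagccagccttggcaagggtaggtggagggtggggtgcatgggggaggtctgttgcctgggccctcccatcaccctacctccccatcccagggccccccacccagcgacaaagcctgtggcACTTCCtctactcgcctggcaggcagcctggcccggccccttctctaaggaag
The match begins 217 bases before the start in Kdr, 52 in Flt1, 82 in Tie1 and 53 in Eng.

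The arrays differed in overall brightness. An array is called bright here when its 75th percentile of processed intensity exceeded 600 units (11 arrays, up to 1209) and dim otherwise (27 arrays, down to 35.1). Bright arrays make up 4 of 10 in LFC, 2 of 10 in HFC, 0 of 6 in HF5, 4 of 6 in HF20 and 1 of 6 in HF75. Markers of brown adipocytes were detected throughout, with Ucp1, the uncoupling protein of thermogenesis, and Adipoq, the adipocyte hormone adiponectin, well above background on all 38 arrays. Ucp1 was saturated on 8 arrays and Adipoq on 10, so those levels, and the list means that hold them, are lower bounds. The array labelled HF75 Week 3 stood apart. Its log2 level of Ucp1 was -3.07, whereas the next lowest array was at 3.38. It had the lowest mean over 12 brown adipocyte genes (-0.07, against 2.12 to 5.21 on the other arrays). It also had the highest mean over 8 fibroblast genes (4.33, against 0.47 to 3.76) and over 10 macrophage genes (0.93, against -1.67 to 0.64). For the scaled class differences, the list levels, the HF75 results and the comparison among doses below, values without this array are given as well. The time points were scanned on 12 days, nearly always a day of their own, so time on diet and scan day cannot be told apart. The mice also aged over these days, so age cannot be told apart from time on diet either.

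All 10 endothelial genes were well above background on 38 of 38 arrays, and their scaled levels fell into the same 2 ranges as the array brightness. A scaled level here is the log2 processed signal minus the 75th percentile of the array, and levels of different genes are not compared because each probe has its own efficiency. The mean of the 10 genes ran from 3.58 to 5.13 with a median of 4.59 on the 27 dim arrays. On 10 of the 11 bright arrays it ran from 1.18 to 2.13, and on the 11th, HF75 Week 3, it was 3.99. Apart from that array the 2 ranges do not overlap. The mean over the HFC Day 10 array is of 9 genes, since the Cldn5 spot there carried an outlier flag. One array was saturated for Flt1 (HF75 Week 15) and 2 for Cldn5 (HFC Week 0 and HF75 Week 3), so those levels are lower bounds.

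The split was seen in genes of every role. Cdh5, the cadherin of endothelial junctions, ran from 4.84 to 6.45 on dim arrays and from 1.80 to 3.15 on the 10 bright arrays without HF75 Week 3. Flt1, the decoy-like VEGF receptor, ran from 6.63 to 8.77 on dim arrays and from 3.31 to 5.27 on those 10. Eng, the TGF-beta co-receptor, ran from 2.40 to 4.77 and from 0.56 to 1.61. These ranges do not overlap. The junction gene Esam ran from 3.49 to 5.59 and from 0.51 to 1.81, and Tek, the angiopoietin receptor, from 1.04 to 2.87 and from -1.34 to 0.38. Kdr, the main signalling receptor for VEGF, ran from 4.89 to 7.16 and from 2.72 to 4.84, ranges that nearly touch. Only Vwf among the 10 had overlapping ranges, from 2.01 to 5.23 on dim arrays and from 0.12 to 2.59 on the bright ones. On HF75 Week 3 Vwf was at 5.59, its highest level on any array.

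As a description of all bright against all dim arrays, the 10 genes were 3.96-fold (Vwf) to 8.07-fold (Cldn5) lower on the bright arrays after scaling. Without HF75 Week 3 the range was 4.92-fold (Tie1) to 9.90-fold (Cldn5). The bright minus dim difference had a median of -2.68 (log2) over the 10 genes and of -0.32 over all genes tested, and all 10 lay below the 25th percentile of genes, at -1.28. Without HF75 Week 3 these values were -2.86, -0.35 and -1.35, with all 10 again below. Without scaling the picture was different. The log2 processed intensities of the 10 genes differed between the classes by -0.28 (Cldn5) to 0.71 (Vwf), for instance 12.6 on bright and 12.7 on dim arrays for Cdh5. The median gene was 2.38 higher on the bright arrays. The endothelial probes were therefore about as bright on both kinds of array, while most other probes were brighter on the bright ones. Quantile normalization left the median difference of the 10 genes at -2.71 (0.07 over all genes) and normexp background correction at -1.73 (-0.81 over all genes). All 10 lay below the 25th percentile of genes after quantile normalization too, but only 4 of 10 after normexp, where that percentile was -1.77. The unscaled, quantile and normexp differences include HF75 Week 3 and were not computed without it. The source of the brightness difference was not tested.

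**Figure D1:**
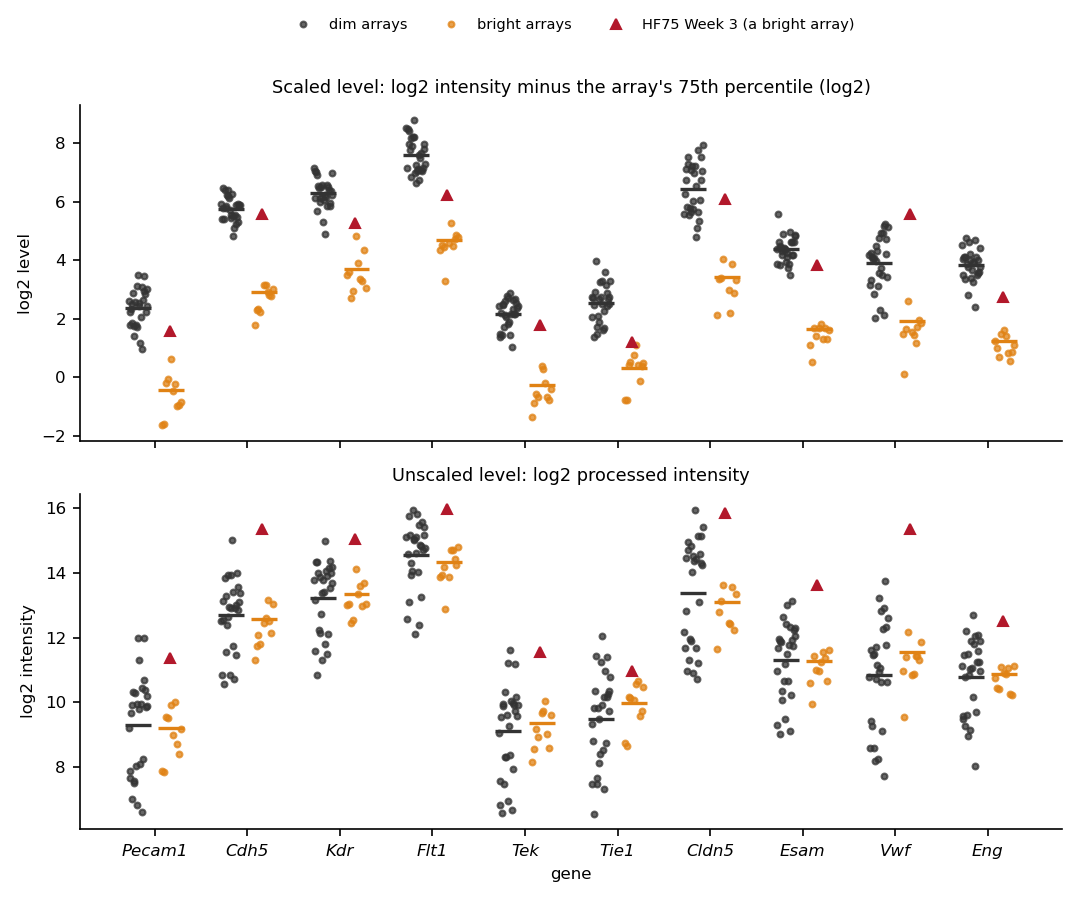
Levels of the 10 endothelial genes on 27 dim (dark grey) and 11 bright (orange) arrays, as scaled levels (upper panel) and as unscaled log2 processed intensities (lower panel). Points are arrays, lines are class means with HF75 Week 3 included, and the triangle is that array. After scaling, the mean differences of bright minus dim lie between -3.01 and -1.99, whereas unscaled means differ by -0.28 to 0.71.

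Other endothelial and blood cell genes were also lower on the bright arrays. All 16 other endothelial genes, all 14 endothelial transcription factors, all 10 platelet genes and all 9 erythroid genes had a lower mean on bright arrays, against 7 of 12 pericyte genes and 0 of 8 fibroblast genes. Over all genes tested the median difference after scaling was -0.32, so most genes were lower on bright arrays too. The pericyte count is therefore not read as a result about pericytes. The mean of 16 other endothelial genes (among them Emcn, Cd34 and Robo4) ran from 3.81 to 5.21 on dim arrays and from 1.71 to 2.44 on the 10 bright arrays without HF75 Week 3, which was at 4.72. That of 14 endothelial transcription factors ran from 2.58 to 3.96 and from 0.49 to 1.61, with HF75 Week 3 at 3.15. For 10 platelet genes the ranges were -1.86 to 0.92 and -4.52 to -3.02, with HF75 Week 3 at -2.37, and for the 9 erythroid genes -1.88 to 1.14 and -3.57 to -1.78. The mean of 12 genes of pericytes and vascular smooth muscle, the contractile cells around the vessels, was 1.78 on dim and 1.93 on bright arrays, and 1.75 on the bright arrays without HF75 Week 3. Fibroblast genes had means of 1.88 and 2.69, brown adipocyte genes 3.27 and 4.09, macrophage genes -0.72 and -0.31 and skeletal muscle genes 0.09 and 0.70. Without HF75 Week 3 the means on bright arrays were 2.53 for fibroblast, 4.51 for brown adipocyte and -0.44 for macrophage genes, and the muscle mean was again above that of the dim arrays. Vegfa, the ligand of Kdr and Flt1, was looked up after its values were seen. It averaged 0.32 on dim and 3.77 on bright arrays, and its lowest level of all was on HF75 Week 3, at -0.72.

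With the high fat diet, no endothelial gene changed beyond the spread between time points. Over the 10 paired time points, 9 of the 10 genes had a positive HFC minus LFC difference, from 0.33 for Esam (SE 0.52) to 0.62 for Eng (SE 0.51), and Vwf had -0.18 (SE 0.43). None of the 10 passed limma at an adjusted p of 0.05, and none reached an unadjusted p of 0.05. Adjusted p ran from 0.677 to 0.876. Over all genes 0 of 21862 were called (0%), with 1527 at an unadjusted p under 0.05 (6.98%). Pecam1, the platelet and endothelial adhesion molecule, ran from -0.97 to 3.46 in LFC with a median of 2.32, and from -0.46 to 3.49 in HFC with a median of 2.24. Cdh5 ran from 2.78 to 5.93 in LFC with a median of 5.27 and from 3.15 to 6.27 in HFC with a median of 5.47. For Cldn5, the tight junction claudin, the ranges were 2.19 to 7.93 with a median of 5.69 and 3.00 to 7.77 with a median of 6.02. The groups overlap throughout for these genes.

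The sign of the diet difference followed the brightness of the 2 arrays. At the 6 time points where both arrays were of one class, the difference of the mean of the 10 genes ran from -1.19 to 0.33 and averaged -0.23, positive at 2 of 6. At the 4 others it averaged 1.32. On the slide that held both diets at Day 6 the difference was -0.13, and on the slide of Day 10, where the HFC array was bright, it was -2.31. With brightness class as a model term the changes ran from -0.59 for Vwf to 0.09, and 7 of 10 were negative. In Weeks 3 to 18 alone, the 10 differences were all positive, from 0.04 for Cldn5 (SE 0.73) to 0.90 for Eng (SE 0.57, adjusted p 0.423). None of the 10 was called or reached an unadjusted p of 0.05, against 2 genes called over the whole array (0.00915%) and 14.4% at an unadjusted p under 0.05. With brightness class as a model term 9 of the 10 were negative, with a median of -0.25, and Cldn5 was at -0.99 (SE 0.44, adjusted p 0.738). Only 3 of the 6 LFC arrays and 5 of the 6 HFC arrays of these weeks were dim.

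**Figure D2:**
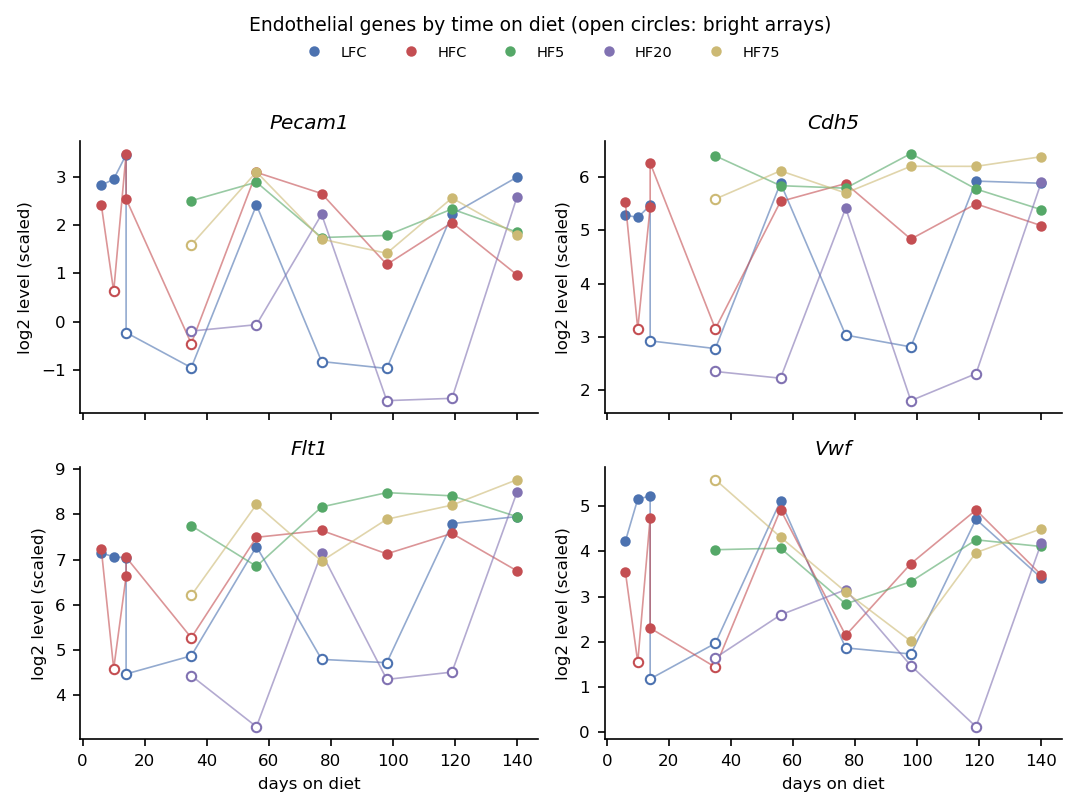
Scaled log2 levels of Pecam1, Cdh5, Flt1 and Vwf against days on diet in the 5 groups, 1 array per point. Filled circles are dim arrays and open circles bright arrays. For Pecam1, Cdh5 and Flt1 the low points are open circles in LFC, HFC and HF20, and the open HF75 point at Week 3 lies above the other open points in all panels.

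Over time on diet, the levels of the 10 genes had no common direction. In LFC and HFC together, slopes per 10 weeks ran from -0.27 for Pecam1 (SE 0.51) to 0.51 for Flt1 (SE 0.39), with 7 positive and 3 negative. None of the 10 was called, with adjusted p from 0.470 to 0.973, and none had an unadjusted p under 0.05. Over all genes 356 were called (1.63%) and 21.3% had an unadjusted p under 0.05. In LFC alone the slopes ran from -0.30 for Vwf to 0.83 for Cldn5 (SE 0.82), with 0 of 10 called or at an unadjusted p under 0.05, and 0% called and 3.56% at an unadjusted p under 0.05 over all genes. In HFC alone they ran from -0.48 for Cldn5 to 0.64 for Vwf (SE 0.69), with 0 of 10 called or at an unadjusted p under 0.05, against 2333 genes called over the array (10.7%) and 27.1% at an unadjusted p under 0.05. The difference between the slopes of the 2 diets was largest for Cldn5 at -1.43 (SE 0.83, adjusted p 0.469), followed by Vwf at 0.94 (SE 0.60, adjusted p 0.514). For this product of diet and day 0 of 10 members and 0% of genes were called, and 15.3% of genes but no member had an unadjusted p under 0.05. When brightness class was added, the product was negative for 9 of 10, with a median of -0.58 in place of -0.03. None was called (Cldn5 -1.46, adjusted p 0.0678), and 5 had an unadjusted p under 0.05. Of 21862 genes tested, 668 were called in that fit and 5475 had an unadjusted p under 0.05.

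With brightness class as a model term, 2 of the 10 genes had slopes in HFC that passed. Pecam1 fell by 1.03 per 10 weeks (SE 0.26, adjusted p 0.0144) and Tek fell by 0.70 (SE 0.21, adjusted p 0.0295). In that fit 3750 of 21862 genes were called in either direction, and 6.16% of all genes were called lower. Of the other vascular lists, 3 of 16 other endothelial genes, 4 of 14 transcription factors, 2 of 12 co-receptors and signalling genes, 1 of 6 activation genes and 4 of 12 pericyte genes were also called lower there. On the 8 dim HFC arrays Pecam1 was at 2.43 on Day 6, 3.49 on Day 14 and 2.55 in Week 0, then at 3.10, 2.66, 1.19, 2.05 and 0.97 in Weeks 6, 9, 12, 15 and 18. Its lowest dim levels in HFC are thus those of Weeks 12 and 18. Tek, the angiopoietin receptor, was at 1.88 on Day 6, 2.72 on Day 14 and 2.87 in Week 0 on the same arrays, then at 2.64, 2.35, 1.46, 2.15 and 1.04 in Weeks 6 to 18. Again Weeks 12 and 18 were lowest. These dim HFC arrays also differed in brightness. Their 75th percentile was 358 on Day 14 and 430 in Week 0, but 48.3, 120, 239 and 49.8 in Weeks 9, 12, 15 and 18. Fitted on dim arrays only, the slope was -0.88 for Pecam1 (SE 0.29, adjusted p 0.0651) and -0.60 for Tek (adjusted p 0.105), so neither passed there. Each of these genes was called in 1 of 21 alternatives, the brightness class, and not with log2 of the 75th percentile as a covariate. In LFC the slope of Pecam1 with the class in the model was -0.27 (SE 0.25), and the difference between the diets was -0.68 (SE 0.35, adjusted p 0.251), which does not show that the diets differ. In both diets together Pecam1 had a slope of -0.64 (adjusted p 0.0518), and 3.39% of genes were called lower in that fit. The other members had HFC slopes with the class in the model from -0.84 for Cldn5 (adjusted p 0.124) to 0.05 for Vwf and Flt1.

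**Figure D3:**
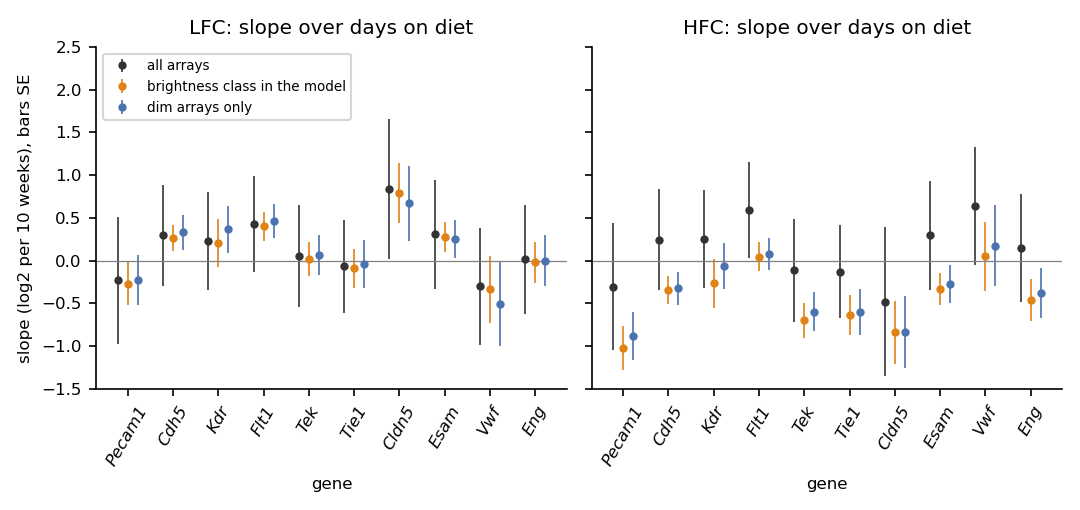
Slopes over days on diet (log2 per 10 weeks, bars SE) of the 10 genes in LFC and HFC, with all arrays, with brightness class as a model term, and on dim arrays only. In HFC the Pecam1 slope is -0.30 with all arrays and -1.03 with the class in the model.

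The trend over Weeks 3 to 18 in all 5 groups gave positive slopes for 9 of 10 genes. Flt1 had the largest at 1.23 per 10 weeks (SE 0.39, adjusted p 0.0632) and was the 1 member with an unadjusted p under 0.05. Kdr, its sister VEGF receptor, followed at 0.81 (SE 0.41, adjusted p 0.193). Without HF75 Week 3 the slope of Flt1 was 1.16 (adjusted p 0.0980). None of the 10 was called, against 205 genes over the array (0.938%) and 27.6% at an unadjusted p under 0.05. With brightness class as a model term the signs turned in 8 of the 9, and Flt1 was at 0.30 (SE 0.24). The most negative slope was then that of Tie1, the orphan partner of Tek, at -0.99 (SE 0.23, adjusted p 0.104). Of the 5 arrays at Week 3, 4 were bright, and at Week 18 none was.

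At the dose of 20 micrograms, all 10 endothelial genes were lower than in HFC without Kal-1, by -1.67 (Cdh5) to -1.13 (Eng) on the log2 scale, but none passed the adjusted threshold. Over the 6 time points Cdh5 was at 2.35, 2.22, 5.42, 1.80, 2.31 and 5.90 in HF20 and at 3.15, 5.55, 5.88, 4.84, 5.50 and 5.09 in HFC. HF20 was lower at every week but Week 18, and the 4 lowest HF20 values are the 4 bright arrays. The difference for Cdh5 was -1.67 (SE 0.64, adjusted p 0.120). An unadjusted p under 0.05 was reached by 5 of the 10 (Cdh5, Flt1, Tek, Tie1 and Esam), beside 33.2% of all genes, and 0% of genes were called. HF20 was below HFC at 5 or more of the 6 time points for 7 of the 10 genes, and for 22.9% of all genes. At the 3 time points where both arrays were of one class the mean of the 10 genes differed by 0.16, and at the 3 others by -3.03. With the class in the model the changes ran from -0.37 to 0.20.

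The lowest and the highest dose gave no such shift. In HF5 the 10 genes were 0.30 (Tie1, SE 0.58) to 1.20 (Cldn5, SE 0.73) above HFC, with adjusted p from 0.822 to 0.940 and none at an unadjusted p under 0.05, beside 0% of genes called and 5.45% at an unadjusted p under 0.05. When brightness class was added the median of the 10 was 0.29 in place of 0.72, with Tek and Tie1 both at -0.11. On the slide that held both at Week 12 the mean of the 10 was 4.71 in HF5 and 3.66 in HFC. In HF75 they were between 0.14 below (Tie1, a change of -0.14) and 1.04 above HFC (Cdh5, SE 0.64, adjusted p 0.592), again with none at an unadjusted p under 0.05, beside 0% of genes called and 9.14% at an unadjusted p under 0.05. All 6 HF75 arrays were of the same class as the HFC array of their week, and adding the class to the model left these changes as they were. In that fit 2 of the 10, Cdh5 and Flt1, had an unadjusted p under 0.05, beside 3611 of 21862 genes. None of the 10 was called in it. Vwf differed most by week in HF75, from -1.72 to 4.15, the latter at Week 3. Without the HF75 Week 3 array the change of Vwf was -0.03 in place of 0.48, that of Cdh5 was 0.92 (SE 0.70), and again none was called. These 3 comparisons share the HFC arrays.

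**Figure D4:**
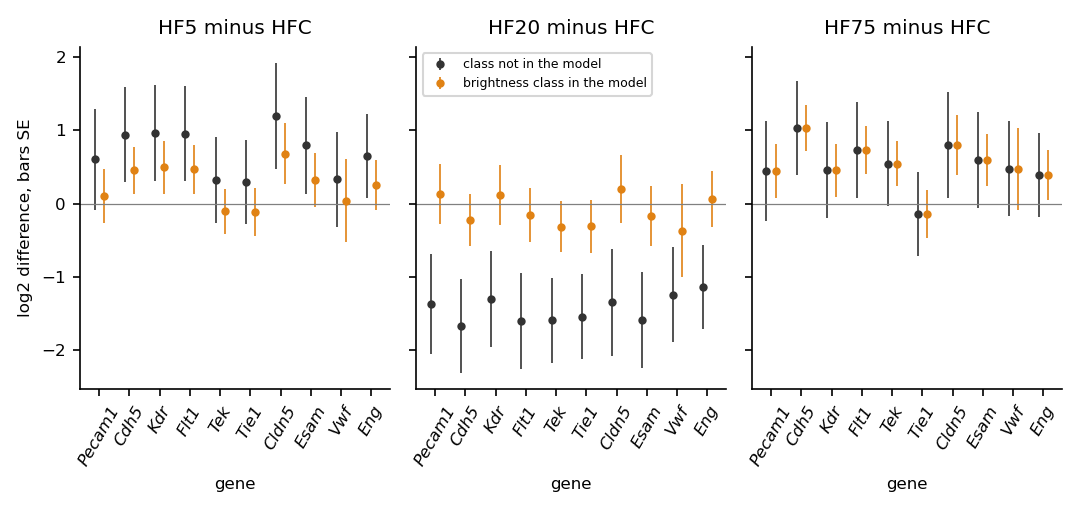
Differences of the 10 genes between each dose of Kal-1 and HFC over Weeks 3 to 18 (log2, bars SE, 6 arrays a group), without (black) and with (orange) the brightness class in the model. In HF20 the differences lie between -1.67 and -1.13 without the class and between -0.37 and 0.20 with it.

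Compared directly, the 3 doses differed in 6 of the 10 genes. Cdh5 (adjusted p 0.0343), Flt1 (0.0348), Esam (0.0375), Tek (0.0376), Cldn5 (0.0427) and Kdr (0.0474) passed the moderated F test, and Eng, Tie1, Pecam1 and Vwf did not, at adjusted p of 0.0583, 0.0601, 0.0680 and 0.0902. All 10 had an unadjusted p under 0.05. Over all genes 13.4% were called and 37.3% had an unadjusted p under 0.05. In each of the 6 the HF20 mean was lowest. Cdh5 averaged 5.94 ± 0.41 in HF5, 3.33 ± 1.82 in HF20 and 6.04 ± 0.32 in HF75 (SD, n = 6), so HF5 was 6.11-fold and HF75 6.51-fold above HF20. Its 6 values were 6.40, 5.84, 5.80, 6.45, 5.78 and 5.39 in HF5 and 5.59, 6.12, 5.70, 6.21, 6.21 and 6.39 in HF75. The HF20 values of Weeks 9 and 18, 5.42 and 5.90, lie within the HF5 range, and the other 4 lie far below both ranges. For Flt1 the means were 7.93 ± 0.60, 5.38 ± 1.99 and 7.71 ± 0.94, for Tek 1.97 ± 0.49, 0.06 ± 1.49 and 2.20 ± 0.40, and for Kdr 6.61 ± 0.52, 4.34 ± 1.84 and 6.10 ± 0.47 (SD, n = 6).

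Once brightness class was a model term, 0 of 21862 genes were called among the doses. The members had adjusted p from 0.294 to 0.987 there, and no member was called on dim arrays only. Without the HF75 Week 3 array, the count of members called fell from 6 to 0, with adjusted p from 0.0643 to 0.122. It was also 0 without Week 3, 6, 12 or 15, the weeks in which the HF20 array was bright, and 9 without Week 9 or without Week 18. On the shared slides of Weeks 3 and 15 the mean of the 10 in HF20 was 3.16 and 3.61 below HF5 (differences of -3.16 and -3.61), in both cases a bright against a dim array. On the shared slide of Week 18, where both arrays were dim, HF20 exceeded HF75 by 0.13. HF20 and HF75 were of one class at 3 weeks, with differences of -2.33 at Week 3, where both were bright, and of -0.12 and 0.13 at Weeks 9 and 18.

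Among the other vascular genes, 2 pericyte genes fell over days on diet, which cannot be told apart from age or scan day. Pericytes wrap the capillaries and are marked by Rgs5, a regulator of G protein signalling, and by Abcc9, a subunit of their potassium channel. In LFC and HFC together 2 of 12 genes of the pericyte and smooth muscle list fell over days on diet and none rose, beside 1.63% of all genes called. Rgs5 fell by 0.76 per 10 weeks (SE 0.15, adjusted p 0.0306). It was at 4.09 in LFC and 4.45 in HFC at Day 6 and at 2.20 and 2.52 at Week 18, the lowest value of each diet. Abcc9 fell by 1.03 per 10 weeks (SE 0.23, adjusted p 0.0398). Its levels were -1.53 and -0.85 at Day 6 and -3.08 and -3.46 at Week 18. The HFC spots of Weeks 9 (-3.38) and 18 were not well above background, so the order of those 2 is not known, and in all the gene was well above background on 30 of 38 arrays. With brightness class as a model term both fell as well, Rgs5 by 0.77 (adjusted p 0.0106) and Abcc9 by 0.93 (adjusted p 0.0120). On dim arrays only, the slopes were -0.81 for Rgs5 (adjusted p 0.0288) and -1.06 for Abcc9 (adjusted p 0.0253). In the trend over Weeks 3 to 18 in all 5 groups, 0 of 12 genes of the list were called. There 5 of 12 had an unadjusted p under 0.05, beside 27.6% of all genes. That trend on dim arrays only was -0.35 for Rgs5 (adjusted p 0.452) and -0.27 for Abcc9 (adjusted p 0.679). The list as a whole had 11 of 12 negative slopes and a median of -0.39, beside a median of 0.19 for the 10 endothelial genes and 0.04 for all genes. In HFC alone both were called (adjusted p 0.0284 and 0.0241, beside 10.7% of all genes), in LFC alone neither was (slopes of -0.71 and -0.81), and the difference between the diets' slopes did not pass (adjusted p 0.906 and 0.682). Neither gene was called in HFC against LFC (adjusted p 0.953 and 0.661). Abcc9 averaged -2.32 on dim and -0.86 on bright arrays, and Rgs5 3.22 and 3.65.

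**Figure D5:**
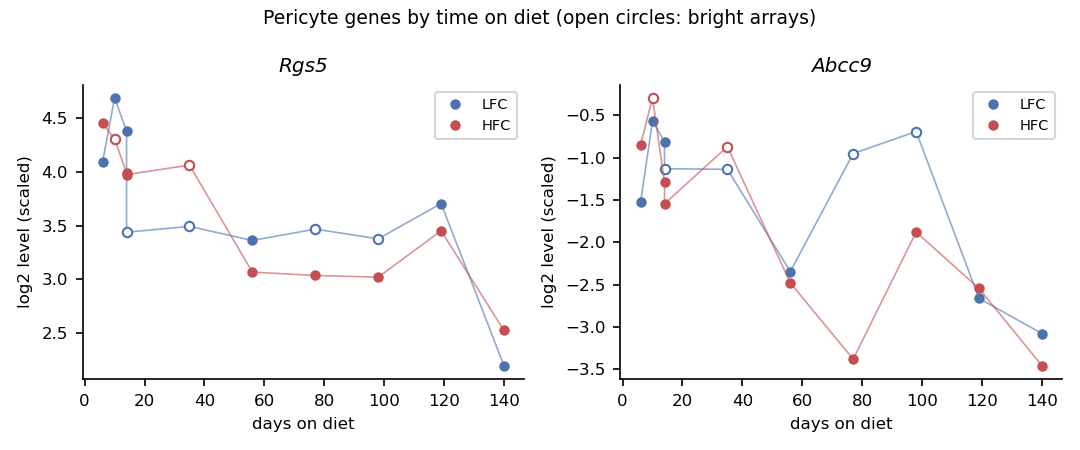
Scaled log2 levels of the pericyte genes Rgs5 and Abcc9 against days on diet in LFC and HFC, 1 array per point, with bright arrays as open circles. Rgs5 is lowest at Week 18 (140 days) in both diets, Abcc9 in HFC was not well above background at Weeks 9 and 18, and the bright arrays are not set apart downward.

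In the other 7 vascular lists no gene passed in HFC against LFC or in the trend over days. Of 16 other endothelial genes, Clec14a, a surface lectin of endothelium, had a diet difference of 0.67 (SE 0.43, adjusted p 0.643), and Gpihbp1, which carries lipoprotein lipase across capillaries, had a slope of 0.59 (SE 0.44, adjusted p 0.465). Among 14 transcription factors the smallest p values were those of Lmo2 (diet difference 0.93, SE 0.51) and the shear-responsive factor Klf2 (0.63, SE 0.49). Of 10 angiogenic ligands tested, Fgf2, a fibroblast growth factor that stimulates vessel growth, had a slope of 2.77 per 10 weeks (SE 0.84, adjusted p 0.0781), and Apln, the ligand of the apelin receptor, a diet difference of 0.51 (SE 0.24, adjusted p 0.643). Aplnr, that receptor, had a slope of -0.93 (SE 0.37, adjusted p 0.157). In the trend with brightness class as a model term, 1735 of 21862 genes were called, among them 3 genes of these 7 lists. The 3 were Fgf2 at 2.29 (adjusted p 0.0300), Aplnr at -1.17 (adjusted p 0.00979) and, named after its result was seen, the leukocyte adhesion molecule Icam1, which fell. On dim arrays only, Aplnr passed at -1.21 (adjusted p 0.0286) and Fgf2 did not, at 2.55 (adjusted p 0.0551). Fgf2 was at -4.01 on average on bright and 1.22 on dim arrays.

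Notch1, a receptor of arterial fate, had a slope of 0.56 (SE 0.35, adjusted p 0.377). Of the 6 activation genes, which endothelium raises under inflammation or stress, Edn1, the precursor of a vessel-constricting peptide, had a diet difference of 0.68 (SE 0.69). For lymphatic vessels Prox1, their master factor, had a diet difference of 2.07 (SE 0.72, adjusted p 0.643) but was well above background on only 6 of 38 arrays, and Reln had -0.69 (SE 0.50). The platelet genes Gp1ba, a subunit of the receptor that binds Vwf, and Ppbp had differences of 1.15 (SE 0.70) and 0.63 (SE 0.63), and Gp1ba was well above background on 6 of 10 LFC and 7 of 10 HFC arrays. Median diet differences were 0.42 for the other endothelial genes, 0.42 for the transcription factors, 0.56 for the platelet genes and -0.37 for the pericyte list, beside 0.49 for the 10 members. When brightness class was added they were -0.11, -0.08, -0.11 and -0.26, and -0.06 for the members. Among the 3 doses 11 of the 16 other endothelial genes and 10 of the 14 transcription factors passed the F test, beside 13.4% of all genes, and none of the 10 platelet genes did. Once brightness class was added, 0 of 21862 genes passed the F test, those of these lists included.

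The 10 genes followed each other closely across all arrays and less closely within one brightness class. Over 38 arrays the 45 pairwise correlations ran from 0.65 to 0.97 with a median of 0.88. The 38 arrays form 2 classes, and within the 27 dim arrays the correlation ran from -0.29 to 0.78 with a median of 0.39, and 5 pairs were below 0. The genes most like the mean of the 10 over 38 arrays were Apbb2 (r = 0.98), Robo4 (0.98), Arhgef15 (0.98), Ndrg1 (0.97) and Fmnl3 (0.97), among 20851 genes measured on every array. With the class removed they were Apbb2 (0.90), 4933407C03Rik (0.89), Ndrg1 (0.88), Lama5 (0.88) and Pcdh19 (0.87). Robo4 is a guidance receptor of endothelium and Lama5 a laminin chain of the vessel basement membrane. These correlations are descriptions of arrays that share groups, times and scaling.

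Several members have more than 1 probe. The 2 probes of Flt1 correlated at 0.98 over the arrays, those of Vwf at 0.99, those of Cdh5 at 0.88 and the 4 of Eng at 0.896 or more. The 2 Cdh5 probes disagreed in the sign of the slope over days in LFC, in HFC and in both, where none was called, and the one not used gave an unadjusted p of 0.00914 among the doses. All of the 10 probes of these 4 genes had an unadjusted p under 0.05 in that test.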

How the data were processed

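The members, the gene lists and the tests were chosen with earlier results of these data known. Spot intensity values were taken from the deposited scanner output of Agilent Feature Extraction, version 10.5.1.1 per the file headers and 9.1 per the submitters' processing notes. Its processed signal is background-corrected, with no scaling across arrays. A further deposited table, in which the authors give log2 ratios of every array over LFC at that time, served as an alternative. It also gave the letters of the probes. No sample column was left unmapped (0). Groups, times and doses came from the labels. Week labels were converted to days on diet by adding 14 days, as the study's methods do for its liver arrays.

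From these files, the log2 processed signal minus the 75th percentile of each array was computed. Spots with an outlier flag were left out, spots of a probe were averaged, and the probe with the highest mean over the 38 arrays stood for its gene name. Gene names well above background on at least 6 arrays were tested, 21862 in all. Models were fitted across all tested genes in limma 3.58.1 (functions lmFit, eBayes; two-sided, Benjamini-Hochberg adjustment over the genes tested, threshold 0.05) in R 4.3.3, and every adjusted p below comes from these fits. HFC against LFC, the product of diet and day and the dose comparisons had the time point as a block. The trends had the group and the days on diet in the model, with slopes per 10 weeks. A moderated F test compared the 3 doses. The bright class was set at a 75th percentile above 600 intensity units.

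The text names the 10 endothelial genes in every comparison. From each of 8 vascular lists it names the genes that passed in HFC against LFC or in the trend over days in LFC and HFC, or otherwise the 2 with the smallest p in either. One gene that this rule names is not reported here. It also names the 5 genes most correlated with the mean of the 10, over all arrays and with the brightness class removed. Of the other cell type lists, counts, medians and ranges are given. Alternatives were quantile normalization, normexp background correction (offset 50), no filter, a filter for every array, the median of all probes, brightness as a class or a covariate, array weights, a random block for the slide, omission of each time point in turn, a fit without the block, the deposited table, Day 14 and Week 0 joined and slopes on the order of days. Fits on dim arrays only, on time points with both arrays in one brightness class and without the HF75 Week 3 array were added after the data were seen. Arrays of one diet differ as animals or as hybridisations, which the labels do not tell apart, so the p-values measure the spread between arrays of different time points. The number of arrays limits the precision.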

Additional observations from a re-analysis of the deposited data

Results flagged for a closer look

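Differences among the doses of Kal-1 were flagged for 6 of the 10 endothelial genes, because the groups' changes against HFC over the same weeks differed from each other in limma's moderated F test. Adjusted p was 0.0343 for Cdh5, 0.0348 for Flt1, 0.0375 for Esam, 0.0376 for Tek, 0.0427 for Cldn5 and 0.0474 for Kdr. In all 6 the HF20 group was lowest, and 4 of its 6 arrays were bright. No single array stood far from the rest of its group among the 50 sets of gene and group examined, where chance alone would flag about 1 in 20.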

How the results depend on the processing

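In HFC against LFC, in the trend in LFC and HFC together and in LFC alone, in the product of diet and day, in Weeks 3 to 18, and for HF5 and HF75 against HFC, none of the 10 genes was called under any alternative run. The count among doses, 6 in the reported fit, was 0 with normexp, 0 without a filter, 0 with the brightness class in the model, 0 with log2 of the 75th percentile as a covariate and 0 on dim arrays only. It was 10 with the slide as a random block and 10 with array weights. Leaving out each time point gave 0 to 9 genes (0 without Week 3, 6, 12 or 15), and leaving out the HF75 Week 3 array gave 0. Array weights also gave 10 genes in HF20 against HFC, and the brightness class gave 2 in the trend in HFC, where the reported count is 0. The trend over Weeks 3 to 18 had 0 to 1 genes when a time point was left out, the 1 being Flt1 without Week 9 (adjusted p 0.0399). The cause of these changes was not tested. In the other comparisons, no gene called under an alternative had a direction opposite to that of the reported fit. The F test among the doses carries no direction, so directions were not compared there.

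Arrays of LFC and HFC with the same time point deviated together with correlations from -0.25 to 0.67, so the numbers do not pair the arrays at every time point. With no replicate block, 3 genes were called among the doses in place of 6, and 0 in HFC against LFC and in each dose against HFC, as with the block. Over all genes, calls ranged over the alternatives from 0 to 8458 among the doses, from 0 to 5105 in HF20 against HFC and from 0 to 3750 in the trend in HFC. Brightness over background was 36.6% to 78.8% of probes on dim arrays and 62.6% to 72.3% on bright ones, which limits dim genes such as Prox1 and not the 10 members.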
